A study of Mus musculus with 8 samples.

Results

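Dio2, Selenop, Glrx2 and Ccdc152 are 4 of the 155 distinct features in the authors' deposited table of differences between Paupar knockdown and control neural stem cells. They are the genes of thyroid hormone activation (Dio2), selenium transport (Selenop) and glutathione-dependent redox control (Glrx2) in that table, with Ccdc152 added because its locus overlaps that of Selenop on the opposite strand. The genes were selected on their presence in a table of changed features, with their levels in both groups known, so their direction is a description and carries no test here. Ccdc152 itself is not known as a selenoprotein or a redox gene, and the other three carry the heading of the set.

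The cells were mouse neural stem cells dissociated from the subventricular zone (SVZ), the germinal layer beside the lateral ventricles, and grown with EGF and FGF-2 at 20 ng/mL each. The 8 samples are 4 labelled shPaupar, in which a short hairpin RNA against the long non-coding RNA Paupar was delivered by nucleofection (electroporation aimed at the nucleus), and 4 labelled control. The labels do not say which hairpin or plasmid the control cells received, nor the strain, age, sex or number of the mice. The comparison asks which transcripts differ once Paupar, a transcript made beside the transcription factor gene Pax6, is knocked down. Libraries were made from total RNA after removal of ribosomal RNA, and the table used here gives 1 level per group, on a scale that is not stated. Without values per sample, which were not analysed, no standard deviation over replicates, no count of samples showing a direction and no depth can be given, and every p-value below is the authors'. Neither the test behind these p-values nor whether the 4 samples of a group were separate cultures is stated, and the spread they measure may be technical.

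Thyroid hormone reaches the brain largely as thyroxine, which binds its nuclear receptors weakly. The type II deiodinase encoded by Dio2 removes an iodine from the outer ring to make triiodothyronine, the active hormone, and in the brain this enzyme is best known from astrocytes and tanycytes, which supply hormone to neighbouring neurons. The enzyme is a selenoprotein: its catalytic residue is selenocysteine, inserted at a UGA codon that would otherwise end translation, under the direction of a stem-loop in the 3′ untranslated region of the messenger RNA. Selenop encodes selenoprotein P, a secreted protein that carries several selenocysteines at once and delivers selenium between tissues and, in the brain, from glia to neurons through the receptor Lrp8. Glrx2 encodes a glutaredoxin of mitochondria, with further isoforms in the cytosol and nucleus, which uses glutathione to reduce protein disulphides and mixed disulphides and can hold an iron-sulphur cluster.

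The selenocysteine codons are what makes Dio2 and Selenop members of one biochemical family, so the coding sequence around them is shown, 5′ to 3′ on the coding strand, from the GENCODE M21 transcripts (assembly GRCm38), with annotated selenocysteine codons in capitals. The first 2 are the earliest such codon of each gene, at chr12:90729793-90729855 on the minus strand for Dio2 and at chr15:3274818-3274876 on the plus strand for Selenop. The other 2 are the ends of the coding sequences with their stop codons, at chr12:90729412-90729474 for Dio2 and at chr15:3279609-3279710 for Selenop.
Dio2 first codon: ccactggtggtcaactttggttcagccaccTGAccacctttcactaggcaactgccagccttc
Selenop first codon: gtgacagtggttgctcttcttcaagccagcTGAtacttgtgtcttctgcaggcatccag
Dio2 end: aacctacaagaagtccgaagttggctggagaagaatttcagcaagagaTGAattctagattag
Selenop end: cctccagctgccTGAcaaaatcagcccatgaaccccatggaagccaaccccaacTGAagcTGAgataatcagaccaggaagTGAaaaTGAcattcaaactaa

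Dio2 has 2 annotated selenocysteine codons among 266, at codons 130 and 263, and Selenop has 10 among 380, of which the first is codon 59. The Selenop codons are uneven along the message: 9 of the 10 lie from codon 259 on, and 5 of them stand in the last stretch printed above. The table holds RNA levels only and says nothing about how often these codons were read through.

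**Figure D1:**
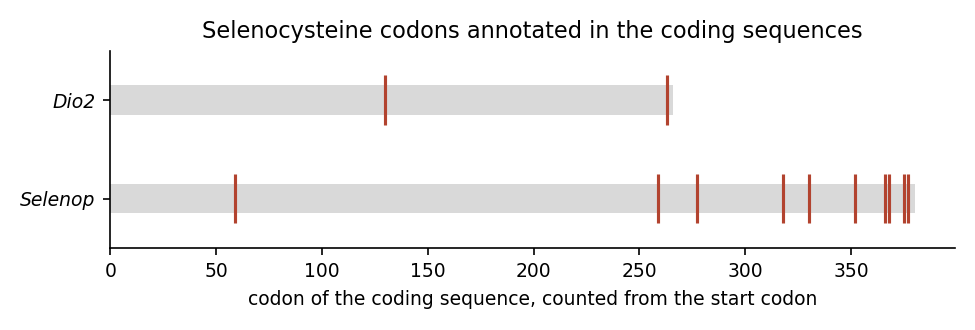
Positions of the annotated selenocysteine codons (vertical marks) along the coding sequences of Dio2 and Selenop (grey bars), in codons counted from the start codon. Dio2 has 2 marks, at codons 130 and 263, while Selenop has 1 at codon 59 and the other 9 crowded toward its end.

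All 4 genes were at lower levels in shPaupar than in control cells, by between 26.2% and 44.8%. Across all 155 features, 65.2% are lower in shPaupar cells, so a downward direction is the common one in the authors' deposited table, and nothing is read from the members' count, which the choice of members fixed. Each of the 4 passed the authors' adjusted p of 0.05, as did all 155 features of the authors' deposited table. Ordered by unadjusted p, Dio2 is number 5 of the 155 features of the authors' deposited table, Glrx2 number 8, Selenop number 46 and Ccdc152 number 88. The adjusted p-values do not keep this order, since 41 features, Ccdc152 among them, have a smaller adjusted p than a feature with a smaller p. Such a case involves a pair of rows and does not show which of them departs, so the value of Ccdc152 need not be irregular. A single Benjamini-Hochberg correction gives no such case, so no single number of tests fits every row of the authors' deposited table. Taken as a single correction, the p and adjusted p of the 4 genes and the smallest rows imply between 29499 and 29522 tests. Not all rows follow that correction, so no share called among all features tested is given.

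**Figure D2:**
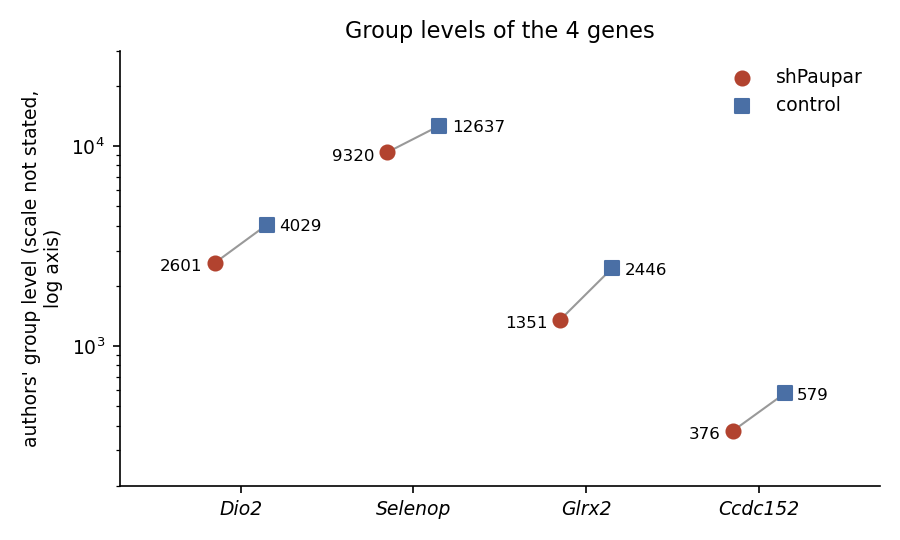
Group level of each gene as the authors give it (vertical log axis, scale not stated), with shPaupar cells as circles on the left and control cells as squares on the right of each pair, 1 value per group without an error. All 4 circles lie below their squares, with the steepest line at Glrx2 (1351 against 2446) and the flattest at Selenop (9320 against 12637).

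Dio2 (ENSMUSG00000007682) had an authors' level of 2601 in shPaupar cells and 4029 in control cells. The level was 35.4% lower after knockdown, a log2 ratio of -0.63. The authors' deposited table gives it p = 1.08e-11 and an adjusted p of 1.06e-07. If that p came from a two-sided normal test, which is an assumption, the standard error of the log2 fold change in the authors' deposited table was 0.0929 and its 95% interval ran from -0.81 to -0.45. The row's locus, chr12:90724552-90738438 on the minus strand, equals the span of the gene in the GENCODE M21 annotation, which lists 1 transcript. A long non-coding RNA gene on the opposite strand, Gm26512, overlaps the span of Dio2 by 238 bases, of which 100 are exonic in both genes. Gm26512 is not among the rows used here. Whether the authors' counting used strand is not given in the sources used here, so reads in those 100 of 5815 exonic bases cannot be assigned to one gene.

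The promoter of Dio2 is shown because in human cells the gene is a known target of cyclic AMP signalling through a cAMP response element. These are the 250 bases before the RefSeq start, at chr12:90739039-90739288 on the minus strand of GRCm38.p6, with TGACGTCA, the palindromic form of that element, in capitals. The RefSeq start lies 600 bases before the M21 start.
Dio2 promoter: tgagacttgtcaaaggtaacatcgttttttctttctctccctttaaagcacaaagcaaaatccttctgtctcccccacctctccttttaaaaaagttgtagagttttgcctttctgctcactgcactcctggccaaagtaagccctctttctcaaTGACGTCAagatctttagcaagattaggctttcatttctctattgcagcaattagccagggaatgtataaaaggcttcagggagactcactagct

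The match begins 95 bases before the start. Among the 32851 RefSeq promoter windows of the same 250 bases, searched on both strands, 508 hold TGACGTCA (1.55%). None of the 3 windows of Selenop, the 4 of Glrx2 or the 1 of Ccdc152 does. The core of the antioxidant response element bound by NRF2, TGACNNNGC, is in 3338 of the 32851 windows (10.2%) and in 0 of the windows of the 4 genes. These letters were searched after the levels and the Dio2 sequence had been seen, and a match is a description of the window, not a site of binding.

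Selenop (ENSMUSG00000064373) had by far the highest level of the 4, 9320 in shPaupar cells and 12637 in control cells as the authors give it. It was 26.2% lower after knockdown, with a log2 ratio of -0.44, the smallest relative difference of the 4. In the authors' deposited table it has p = 2.42e-06 and an adjusted p of 0.00158. The normal-test assumption puts the standard error of the authors' deposited log2 fold change at 0.0932 and the 95% interval at -0.62 to -0.26 in the authors' deposited table. Its locus, chr15:3268547-3280508 on the plus strand, equals the M21 gene span, which covers 7 annotated transcripts, 6 of them protein-coding.

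Per kilobase of annotated exon, and only if the authors' levels were not already divided by length, Selenop stood at 3279 in shPaupar and 4446 in control cells. On that scale Dio2 had a level of 447 after knockdown against 693 in controls, and Ccdc152 one of 277 after knockdown against 426 in controls. Glrx2 was lowest, with 154 after knockdown against 279 in controls. Its divisor of 8772 exonic bases joins the exons of all 13 annotated transcripts, 4 of them retained-intron forms. The last place of Glrx2 depends on that divisor. The value of Ccdc152 divides by its M21 exons, while the length the authors counted over is not known and their locus for this gene is longer, so its place relative to Glrx2 is not settled. With 1 value per group, no spread is available for any of these orders.

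Ccdc152 (ENSMUSG00000091119), a coiled-coil domain gene, lies tail to tail with Selenop. In human liver cells a transcript of this gene has been described as pairing with the selenoprotein P message and reducing its translation. Its level in the authors' deposited table was 376 in shPaupar cells against 579 in control cells. That is 35.1% lower, a log2 ratio of -0.62. The authors' deposited table lists p = 1.94e-05 and an adjusted p of 0.00708, and the normal-test standard error was 0.146, with a 95% interval from -0.91 to -0.34.

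The locus that the authors' deposited table lists for Ccdc152 is not the one in the annotation used here. The row covers chr15:3270868-3303526, whereas M21 has the gene at chr15:3280070-3303526 on the minus strand and RefSeq starts it at 3280099. The deposited locus therefore reaches 9202 bases further, across most of Selenop. By the deposited loci the 2 genes overlap over 9641 bases, which is 80.6% of the Selenop locus and 29.5% of the Ccdc152 locus. By M21 they overlap over 439 bases, all of them exonic in both genes, which is 15.4% of the exonic bases of Selenop and 32.3% of those of Ccdc152. Of the M21 exonic bases of Selenop, 2519 (88.6%) lie within the deposited Ccdc152 locus, although how many are exonic in the authors' own annotation of Ccdc152 is not known here.

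**Figure D3:**
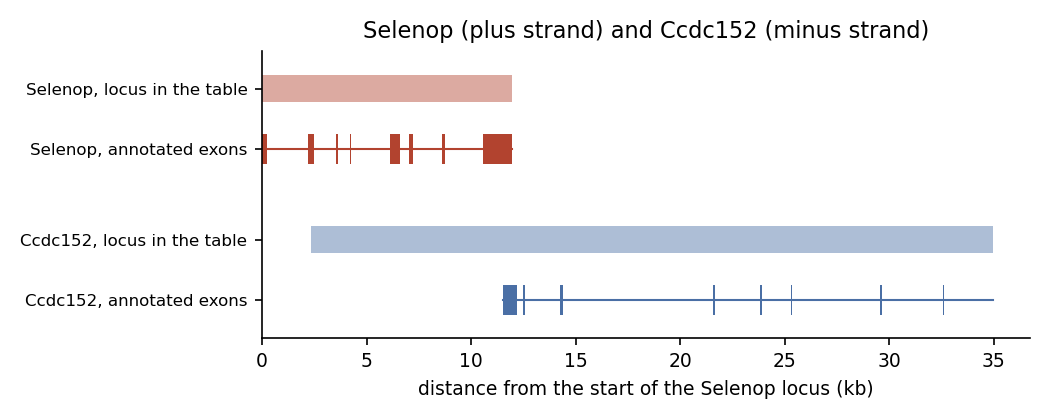
Selenop (plus strand, red) and Ccdc152 (minus strand, blue) drawn to scale, in kilobases from the start of the Selenop locus, with the locus listed in the table as a pale bar and the exons annotated in GENCODE M21 as solid blocks on a line. The pale Ccdc152 bar runs 9202 bases further into Selenop than the annotated gene, whose exons meet those of Selenop over 439 bases.

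Because strand use is not stated, reads from the shared bases cannot be told apart, and the row of Ccdc152 may hold reads of Selenop. The authors' level of Ccdc152 was 4.04% of that of Selenop in shPaupar cells and 4.58% in control cells. The 2 log2 ratios differed by -0.18, Ccdc152 minus Selenop, and the 95% intervals derived above overlap. The difference between them was not tested, since both come from the same samples and no value per sample is at hand. The part of Selenop reads in the Ccdc152 row was likewise not tested.

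Glrx2 (ENSMUSG00000018196) showed the largest relative difference of the 4 genes. Its level in the authors' deposited table was 1351 in shPaupar cells against 2446 in controls. It was 44.8% lower after knockdown, and the log2 ratio was -0.86. The authors' deposited table gives p = 1.44e-10 and an adjusted p of 7.07e-07, from which the normal-test standard error is 0.134 and the 95% interval runs from -1.12 to -0.59. The locus, chr1:143716338-143749676 on the plus strand, equals the M21 span and overlaps no other annotated gene. Among its 13 annotated transcripts 5 are protein-coding and 4 are retained-intron forms. The gene span begins far upstream of the RefSeq start at 143739224. With 1 level for the whole locus, the mitochondrial and other isoforms cannot be separated, nor spliced from intron-retaining RNA.

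**Figure D4:**
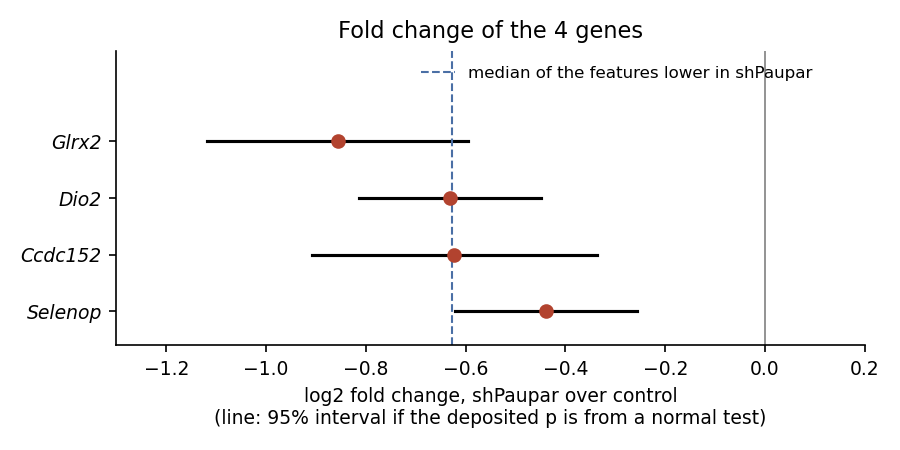
Log2 fold change, shPaupar over control, of the 4 genes as deposited (points), with 95% intervals (lines) that hold only if the deposited p-values came from a normal test. Points run from -0.86 at Glrx2 to -0.44 at Selenop. No interval reaches 0, which follows from deriving the intervals from p-values under 0.05. All 6 pairs of intervals overlap, which is no test of a difference. The dashed line marks the median of the lower features at -0.63, which is the midpoint of Dio2 and Ccdc152 themselves.

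The sizes of these differences were within the range common in the table. The median log2 ratio of the 4 was -0.63, and the median of the 90 features that were lower and above 0 in both groups was also -0.63. These are the same number by construction, because Dio2 and Ccdc152 are numbers 45 and 46 of those 90 features. Both medians are the midpoint of these genes, so their equality compares nothing. Among the 74 lower features that reached a level of 100 in either group and were not listed at 0, the quartiles were -0.74 and -0.43. Glrx2 lay beyond the more negative quartile, with 13 of those features more negative still. Dio2 and Ccdc152 sat in the middle, with 28 and 29 features more negative, and Selenop was close to the other quartile, with 52 more negative. The small adjusted p of Dio2 in the authors' deposited table went with a middling fold change at a high level.

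**Figure D5:**
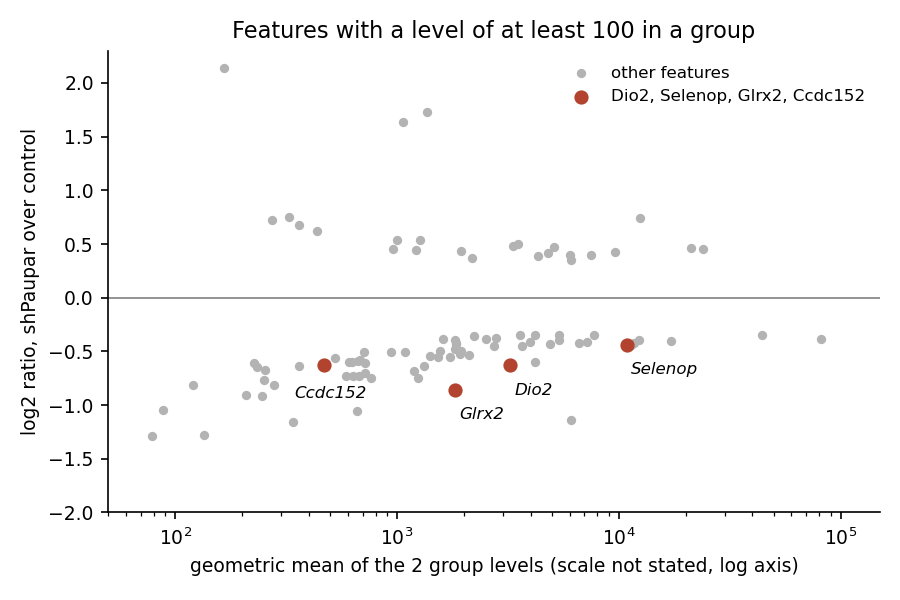
Log2 ratio (shPaupar over control) against the geometric mean of the 2 group levels (log axis, scale not stated) for features that reached a level of 100 in either group and were not listed at 0, with Dio2, Selenop, Glrx2 and Ccdc152 in red. Of these features 94 are drawn and 15 lie beyond the axes. The red points sit in the band of lower features between -0.44 and -0.86, with Glrx2 the lowest of the 4.

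Few other genes of the same pathways are rows of the authors' deposited table. Of 102 distinct genes in 5 lists, 4 were present, and all 4 were lower in shPaupar cells, where 65.2% of all its features are lower. Since 3 of the 4 are Dio2, Selenop and Glrx2, chosen because they are in the table, nothing is read from either count. Of 28 thyroid hormone genes, which include the receptors Thra and Thrb and the inactivating deiodinase Dio3, Dio2 was the 1 present. Of the 24 mouse selenoprotein genes, Dio2 and Selenop were the 2 present. The glutathione peroxidases and thioredoxin reductases on that list are not among the rows. Of 12 genes of selenium uptake and selenocysteine synthesis, among them Lrp8, Scly and Secisbp2, 0 were present. Glrx2 was the 1 present of 27 glutaredoxin, thioredoxin and glutathione genes. Of 20 antioxidant genes, many of them NRF2 targets, the extracellular superoxide dismutase gene Sod3 was the 1 present. Sod3 had a level of 1964 after knockdown against 2523 in controls, a log2 ratio of -0.36, with an adjusted p of 0.0456 in the authors' deposited table. A gene that is not among the rows has no value here, so its absence does not show that it was unchanged.

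Of 10 neural stem cell and astroglial markers, 4 are in the authors' deposited table (Slc1a2, Aqp4, Aldoc and Slc7a10), and all 4 are lower there, as are 65.2% of all features. Their summed authors' level was 46688 in shPaupar and 60089 in control cells, a log2 ratio of -0.36, and Slc1a2 alone made up 84.2% of the sum after knockdown and 83.3% of that in controls. The other 6, Nes, Sox2, Pax6, Gfap, Slc1a3 and Fabp7, are not among the rows, so the identity of the cells cannot be checked from their defining markers. Of 5 neuroblast and neuron markers, Dcx was the 1 present, so it does not stand for that lineage. It was lower too in the authors' deposited table, with 152 after knockdown against 286 in controls. None of 20 markers of oligodendrocytes, microglia, endothelium, ependyma and choroid plexus is among the rows. In RNA from whole cultures, fewer cells of a type and less RNA per cell cannot be told apart, and the part of the marker genes in the lower Dio2 and Selenop levels was not tested.

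The genes nearest to each of the 4 in mean level and log2 ratio were found among 122 named genes above 0 in both groups. Likeness was the distance in the plane of mean log2 level and log2 ratio, each divided by its standard deviation over the 132 features above 0, and rests on only 2 values per gene. Nearest to Dio2 were Aqp4, the astrocyte water channel (log2 ratio -0.45), Teddm2 (-0.45) and the secreted protease gene Htra1 (-0.60). Selenop was closest to Nell2, a secreted neuronal growth factor gene, whose levels of 9678 in shPaupar and 13165 in control cells nearly equal its own. The lipoprotein-associated phospholipase gene Pla2g7 (-0.42) and the glutamine transporter gene Slc38a3 (-0.39) followed. Glrx2 was farther from its nearest gene, the endocytic adaptor gene Sh3gl2 (-0.55) at a distance of 0.135, against 0.0171 from Selenop to Nell2. Frrs1l (-0.52) and Tenm4 (-0.56) came next for Glrx2. The genes closest to Ccdc152 were Lmcd1 (-0.56), Fndc5 (-0.63) and the retinaldehyde dehydrogenase gene Aldh1a1 (-0.73).

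No other feature of the authors' deposited table lies near these genes on their chromosomes. The nearest to Glrx2 was Nmnat2, 9.21 Mb away, the nearest to Dio2 was Lrrc9 at 18.2 Mb, and Enpp2 was 51.6 Mb from Selenop and 51.5 Mb from Ccdc152. Paupar and Pax6 are not among the rows, and the level of the knocked-down transcript is therefore not known here.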

How the data were processed

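RNA was sequenced as paired reads after depletion of ribosomal RNA, per the labels' protocols. Tools listed in the submitters' processing notes, with neither role nor version, are StringTie, TopHat2, HISAT, HISAT2 and CASAVA. The counter, the test, the strand setting and the build are not stated in the labels. The deposited file has 156 rows. Its group levels are a signal whose normalization the authors do not state, with 1 value per group. Fold changes were deposited as log2 values, and the p-values are deposited raw and adjusted. The 1 repeated row was counted once, and 1 row shifted by 1 column was realigned. Levels below 1e-10 were read as 0.

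The log2 ratio was computed from the 2 levels and lay within 0.000246 of the deposited log2 fold change for all 4 genes. A sample-level test was not possible. For a family-wise alternative, a number of tests (29499 to 29522) was derived from the p and adjusted p of the members and the 2 smallest rows, in a search tested on 20 simulated tables of a single correction, where all 20 intervals held the true number. The deposited table as a whole does not follow a single correction, so the simulations do not show that this number holds for it. Standard errors divide the deposited log2 fold change by the normal quantile that p implies. The members and lists were chosen with earlier results of these data known. Genes named by rule were the 4 members, list and marker genes, genes whose locus overlaps a member's, and the 3 genes nearest each member. Also named were the nearest features on the members' chromosomes and, under other observations, genes chosen after their values were seen. Python 3.11.15, pandas 2.3.3, NumPy 2.4.6, SciPy 1.17.1 and matplotlib 3.10.9 were used.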

Additional observations from a re-analysis of the deposited data

How the results depend on the processing

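The direction of Dio2, Selenop, Ccdc152 and Glrx2 was the same under pseudocounts of 1 and 0.1 and with the deposited log2 fold change in place of the ratio. Pseudocounts this small cannot reverse a sign at these levels, and the deposited fold change is nearly the same number. These settings leave the deposited adjusted p unchanged, so they do not test the calls. Each gene also passed an adjusted p of 0.01, with Ccdc152 the closest to it (0.00708). Multiplying p by 29522, an assumed number of tests that not all rows of the table follow, kept Dio2 (3.19e-07) and Glrx2 (4.25e-06) under 0.05. Selenop (log2 ratio -0.44, 0.0714) and Ccdc152 (-0.62, 0.573) passed it no longer, because this control is stricter by construction. The true number of tests is not known, so these passes and failures hold only under the assumed number. With an absolute log2 ratio of at least 0.5, 2 of the 4 list genes remained, Dio2 and Glrx2. The share of features lower, 65.2% in the main count, lay between 65.4% and 68.2% under 3 other ways of counting. A t quantile with 6 degrees of freedom gave standard errors from 0.00465 (Dio2) to 0.0515 (Ccdc152), far below those of the normal quantile, so the derived errors depend on the test assumed. No paired analysis was possible because the table gives 1 value per group, and for the same reason no replicate could be left out. Depth is unknown.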

Other observations

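Further rows of the authors' deposited table belong to redox cofactors, sulphur amino acids, retinoids and a nuclear receptor, on none of the lists above. These 8 were chosen after their values were seen, and 7 were lower in shPaupar cells, where 65.2% of all features are. The 8 are not a full list, so nothing is read from that count. Idh3g, an NAD-dependent dehydrogenase gene outside the 8, was higher, with 328 after knockdown against 15.1 in controls. Its log2 ratio was 4.44, with an adjusted p of 0.000552 in the authors' deposited table. The members had log2 ratios from -0.86 to -0.44. Whether a row with so large a ratio as that of Idh3g gives the level of the whole gene is not stated. In levels given by the authors, Cbs, the enzyme that opens the route from homocysteine to cysteine and so toward glutathione, had 3177 after knockdown against 4034 in controls (log2 ratio -0.34, adjusted p 0.0468 in the authors' deposited table). Me3, a mitochondrial malic enzyme that makes NADPH, had 558 after knockdown against 835 in controls (-0.58, adjusted p 0.0163 in the authors' deposited table). Nmnat2, which makes NAD in neurons, had 4665 after knockdown against 6136 in controls (-0.40), and Pyroxd2, with an oxidoreductase domain, had 509 after knockdown against 771 in controls (-0.60) in the authors' deposited table. Nadk, the kinase that turns NAD into NADP, was the 1 of the chosen 8 that was higher, with 8561 after knockdown against 6489 in controls in the authors' deposited table (0.40, adjusted p 0.0114).

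Both retinoid genes were lower as well. Aldh1a1, which makes retinoic acid, had 458 after knockdown against 760 in controls (-0.73, adjusted p 0.000592 in the authors' deposited table). Dhrs3, which reduces retinaldehyde back to retinol, was lower too, at low levels in both groups (-1.16, adjusted p 0.0243 in the authors' deposited table). Rora, an orphan nuclear receptor gene, had 3722 after knockdown against 4747 in controls (-0.35, adjusted p 0.0343 in the authors' deposited table).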
